A study of Mus musculus with 15 samples.

Results

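A set of 10 genes used to tell the conventional dendritic cell subsets apart were followed across sorted tumour myeloid cells. The rule that picks them is a list of symbols with no cutoff on a measured value, drawn up with earlier results of these data known, and they are 10 of the 50508 symbols of the deposited count table. For type 1 conventional dendritic cells (cDC1) there were 5 genes, Xcr1, Clec9a, Batf3, Itgae and Naaa. For type 2 cells (cDC2) there were 3, Cd209a, Mgl2 and Irf4, and the other 2, Zbtb46 and Itgax, are shared by both subsets. All 10 passed the filter on low counts.

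The cells came from 8 mouse tumours, established for 10 days, of LLC, the Lewis lung carcinoma line. Tumours were Mock-LLC or SULT2B1b-LLC, whose genotype is that of the tumour cells; SULT2B1b is a sulfotransferase that sulfates cholesterol and oxysterols, the ligands of the nuclear receptor LXR. Both populations were sorted by flow cytometry, Ly6Chigh cells that were also CD11c+ MHC-II+, and Ly6Clow cells, for which the labels give no further gate. The groups were Mock-LLC Ly6Chigh (n = 4), SULT2B1b-LLC Ly6Chigh (n = 4), Mock-LLC Ly6Clow (n = 4) and SULT2B1b-LLC Ly6Clow (n = 3, tumours 2, 3 and 4). The labels give no mouse strain, age or clone of the SULT2B1b-LLC line, and no label says that each tumour grew in its own mouse, so p-values measure the spread between these tumours.

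cDC1 and cDC2 both arise from bone marrow precursors under the growth factor FLT3L. cDC1 need the transcription factors BATF3 and IRF8 and are known for taking up dead cells and cross-presenting their antigens to CD8 T cells, while cDC2 depend more on IRF4 and present mainly to CD4 T cells. Tumours also hold monocyte-derived cells that gain CD11c, MHC-II and several genes first described in cDC2, Cd209a among them.

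Promoters are shown for Naaa, Batf3, Cd209a and Mgl2, the genes whose libraries separate most by tumour type or population in the values given further on. Each is 300 bases, from 250 before to 50 after the RefSeq start of the gene on GRCm38.p6, 5′ to 3′ on the gene's strand. Capitals mark a match to one of the 3 motifs searched.
Naaa (chr5:92278132-92278431, minus strand): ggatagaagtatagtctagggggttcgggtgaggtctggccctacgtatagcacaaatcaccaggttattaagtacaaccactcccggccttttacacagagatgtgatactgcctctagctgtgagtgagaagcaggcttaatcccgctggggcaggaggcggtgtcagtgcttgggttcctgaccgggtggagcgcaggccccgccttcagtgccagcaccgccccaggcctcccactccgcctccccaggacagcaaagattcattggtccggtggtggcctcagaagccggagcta
Batf3 (chr1:191098164-191098463, plus strand): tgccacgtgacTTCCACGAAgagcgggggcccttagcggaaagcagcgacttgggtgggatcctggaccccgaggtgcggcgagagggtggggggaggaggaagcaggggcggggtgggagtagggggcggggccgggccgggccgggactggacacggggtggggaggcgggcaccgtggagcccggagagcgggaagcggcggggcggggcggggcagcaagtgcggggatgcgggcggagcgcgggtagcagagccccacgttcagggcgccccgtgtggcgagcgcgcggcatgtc
Cd209a (chr8:3748935-3749234, minus strand): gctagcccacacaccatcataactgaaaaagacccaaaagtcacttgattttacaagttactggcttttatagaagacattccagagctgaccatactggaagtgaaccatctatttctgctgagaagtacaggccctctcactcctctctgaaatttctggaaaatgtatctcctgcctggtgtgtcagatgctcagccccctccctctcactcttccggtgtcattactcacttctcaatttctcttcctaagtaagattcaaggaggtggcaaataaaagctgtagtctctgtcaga
Mgl2 (chr11:70130107-70130406, plus strand): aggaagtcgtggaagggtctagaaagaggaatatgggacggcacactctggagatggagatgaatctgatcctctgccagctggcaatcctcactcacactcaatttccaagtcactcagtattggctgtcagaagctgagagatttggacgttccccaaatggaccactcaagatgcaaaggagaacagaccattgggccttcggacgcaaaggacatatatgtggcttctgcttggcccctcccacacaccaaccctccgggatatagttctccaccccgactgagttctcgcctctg
RefSeq had a promoter for 9 of the 10 genes, all but Itgae, and both strands were searched. The STAT site GAS (TTCNNNGAA) was in Batf3, starting 239 bases before the start, and in 8.3% of all 32851 promoters of this length. The AP-1 site (TGANTCA) was in Itgax and Zbtb46 and in 7.81% of promoters, and the core of the site of the myeloid factor PU.1 (GAGGAAGT) was in 0 of the 9 and in 3.2% of promoters. The Zbtb46 window, 181424339 to 181424638 on the minus strand of chromosome 2, lies inside the gene as GENCODE places it. The GENCODE 5′ end is at 181459426, so the Zbtb46 match is not near that end. The Batf3 window also lies inside its GENCODE span, which starts at 191097847. No 2 matches overlapped. Naaa, Cd209a and Mgl2 held none of the 3 motifs, which says only that these letters are not in these windows.

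The Ly6Chigh libraries held 2617878 to 10626954 counts and the Ly6Clow libraries 19792494 to 39284008, with no overlap, so population and depth cannot be told apart. Levels are CPM, counts relative to library sizes scaled by the TMM method. A single count was worth 0.0259 to 0.379 CPM, and 3 counts, used as a detection floor, 0.0777 to 1.14 CPM; such limits cover counting error only. In Ly6Chigh cells, tumour 1 of SULT2B1b-LLC gave a library unlike the rest: it had the fewest counts, yet 24540 genes were detected in it against 13123 to 17737 in the remaining 7. Sult2b1 itself was at 0 to 0.453 CPM in Mock-LLC and 9.31 to 19.1 CPM in SULT2B1b-LLC Ly6Chigh cells, and at 0 to 0.510 and 1.12 to 2.39 CPM in Ly6Clow cells. Ly6c2, the sort marker, was at 971 to 2111 CPM in the Ly6Chigh and 19.2 to 34.4 CPM in the Ly6Clow libraries. In such sorted bulk samples, fewer cells of a type and less RNA per cell cannot be told apart.

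Per kilobase of exon, which allows levels to be set beside each other across genes, Naaa, Cd209a and Mgl2 were the 3 highest genes in every group. In Mock-LLC Ly6Chigh cells the means were 107 CPM per kb for Cd209a, 86.2 for Naaa and 50.4 for Mgl2, with the libraries of Cd209a and Naaa overlapping. In SULT2B1b-LLC Ly6Chigh cells Naaa came first at 182 CPM per kb, apart from Cd209a at 125, which overlapped Mgl2 at 97.1. In Mock-LLC Ly6Clow cells the order was Naaa at 104, Mgl2 at 95.6 and Cd209a at 49.5 CPM per kb, each overlapping the next. In SULT2B1b-LLC Ly6Clow cells Naaa at 216 and Mgl2 at 186 CPM per kb overlapped, and Cd209a at 50.1 was below both. The defining cDC1 genes lay at the other end of the scale. Xcr1, Clec9a and Itgae were at mean levels of 0.155 to 1.54 CPM per kb, and Zbtb46, the factor that marks the conventional dendritic cell lineage, at 0.969 to 2.18, against 5.59 to 14.5 for Batf3 and 4.11 to 6.51 for Irf4. Itgax was between these and the top 3 genes, at 20.8 to 30.8 CPM per kb. Among the 5 cDC1 genes Naaa was thus far above the rest; it is also expressed by macrophages, so its level alone does not mark cDC1.

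**Figure D1:**
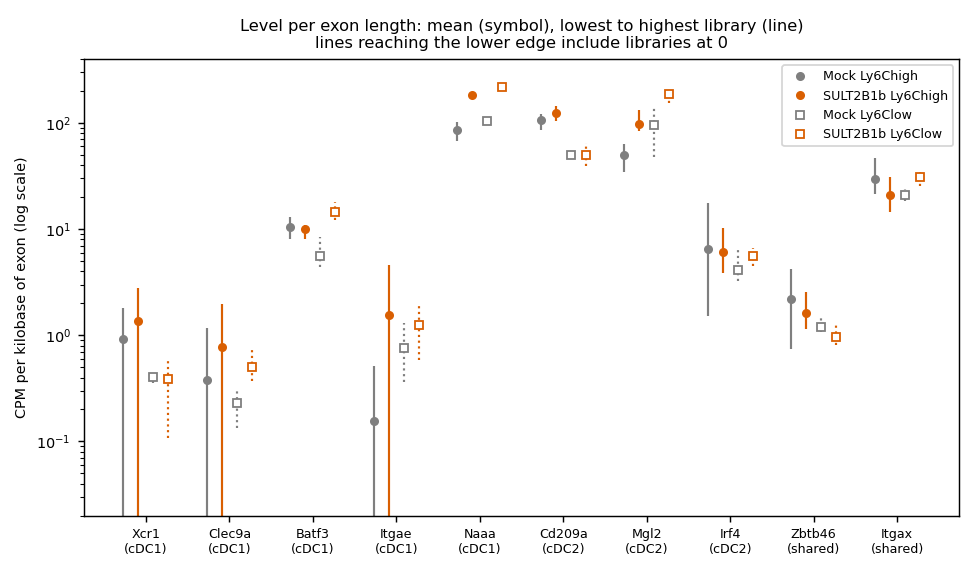
Level of each gene per kilobase of exon on a log axis, with the group mean as a symbol and a line from the lowest to the highest library. Naaa, Cd209a and Mgl2 lie above the other genes in all 4 groups, and the Ly6Chigh lines of Xcr1, Clec9a and Itgae run to the lower edge because some libraries had 0 counts.

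Among the cDC1 genes, Naaa rose in SULT2B1b-LLC tumours in both populations. Naaa (chromosome 5, 92257659 to 92278170, GRCm38) encodes a lysosomal amidase that breaks down N-acylethanolamines such as palmitoylethanolamide. In Ly6Chigh cells it was at 383, 275, 249.7 and 377 CPM in the 4 Mock-LLC libraries and at 687, 695, 708 and 623.7 CPM in the 4 SULT2B1b-LLC libraries. The Ly6Clow libraries held it at 416, 375, 361 and 398 CPM in Mock-LLC and at 763, 794 and 854 CPM in SULT2B1b-LLC. Every SULT2B1b-LLC library lay above every Mock-LLC library within its population. The fold was 2.11 in Ly6Chigh cells (log2 1.08 ± 0.13 SE, adjusted p = 0.000899) and 2.07 in Ly6Clow cells (log2 1.05 ± 0.14 SE, adjusted p = 0.00103), by edgeR's quasi-likelihood test with Benjamini-Hochberg adjustment over 13800 genes. The effects in the 2 populations differed by a log2 of 0.03 ± 0.19 SE (95% interval -0.37 to 0.43, adjusted p = 0.999). Naaa was the 1 of 10 genes called in each comparison of tumour types, where 1.62% of all genes tested were called in Ly6Chigh and 0.638% in Ly6Clow cells. Without the Ly6Chigh library that stood apart the log2 difference was 1.08 (adjusted p = 0.00246), and a fit of only the 8 Ly6Chigh libraries gave 1.10 but ended the call (adjusted p = 0.0770).

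Within each population the summed level of 8 macrophage markers was also higher in SULT2B1b-LLC. The sum of Adgre1, Mertk, C1qa, C1qb, C1qc, Trem2, Mrc1 and Folr2 was 3471 to 3880 CPM in Mock-LLC and 5563 to 7674 CPM in SULT2B1b-LLC Ly6Chigh cells. In Ly6Clow cells it was 8437 to 10272 and 13421 to 13922 CPM. The sum was lower in SULT2B1b-LLC Ly6Chigh than in Mock-LLC Ly6Clow cells. Mean Naaa was 678 CPM in the former and 388 CPM in the latter. Abundant members weigh most in the sum, with C1qb at means of 2683 and 3800 CPM in these groups. The members were uneven in Ly6Clow cells of Mock-LLC and SULT2B1b-LLC. C1qb was at means of 3800 and 5472 CPM, Trem2 at 493 and 487 CPM, and Folr2 at 174 and 182 CPM. Of the 8, 4 were called higher and 0 lower in SULT2B1b-LLC in Ly6Chigh cells, where 0.891% of all genes tested rose. In Ly6Clow cells only 1 of the 8 was called higher and 0 lower, where 0.507% of all genes tested rose. None of the 8 was at 0 in a whole group, and their part in the Naaa result was not tested. Monocyte markers, 6 genes, summed to 9415 to 11685 CPM in Mock-LLC and 7151 to 9041 CPM in SULT2B1b-LLC Ly6Chigh cells, and to 14480 to 16377 and 6121 to 8759 CPM in Ly6Clow cells.

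Batf3 (chromosome 1, 191097847 to 191108945), the AP-1 family factor required for cDC1, did not pass the test in any comparison. In Ly6Clow cells it was at 7.05, 7.67, 7.59 and 13.4 CPM in Mock-LLC and at 19.2, 28.9 and 21.2 CPM in SULT2B1b-LLC. In Ly6Chigh cells it was at 14.3, 20.8, 19.5 and 12.8 CPM in Mock-LLC and at 17.4, 12.8, 17.3 and 16.8 CPM in SULT2B1b-LLC. The tumour types did not overlap in Ly6Clow cells and overlapped in Ly6Chigh cells. The log2 difference was 1.37 ± 0.32 SE in Ly6Clow cells, 2.59-fold (adjusted p = 0.0916), and -0.07 ± 0.30 SE in Ly6Chigh cells (adjusted p = 0.953). The Ly6Clow difference passed with DESeq2 (adjusted p = 0.00161), with limma-voom (adjusted p = 0.00353), in a fit of the 7 Ly6Clow libraries (adjusted p = 0.0263) and without Mock-LLC tumour 4 (adjusted p = 0.0453). Over all 14 alternatives its adjusted p ran from 0.00161 to 0.731. The difference between the 2 effects was a log2 of -1.44 ± 0.45 SE (95% interval -2.39 to -0.49, unadjusted p = 0.00549), which did not pass after adjustment (adjusted p = 0.451).

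Xcr1, Clec9a and Itgae were the lowest cDC1 genes per kilobase of exon, and each had 0 counts in some Ly6Chigh libraries. Xcr1 (chromosome 9, 123852315 to 123862029) encodes the receptor for the chemokine XCL1. It was at 0, 4.38, 4.01 and 7.97 CPM in Mock-LLC and 4.92, 0, 12.4 and 7.15 CPM in SULT2B1b-LLC Ly6Chigh cells, and at 1.58 to 2.02 CPM in Mock-LLC and 2.16, 0.477 and 2.57 CPM in SULT2B1b-LLC Ly6Clow cells. The groups overlapped, and the Ly6Chigh libraries ranged from no count to 98 counts, a wider spread than the 14 to 78 counts of the deeper Ly6Clow libraries. The 2 libraries without a count, of Mock-LLC tumour 1 and SULT2B1b-LLC tumour 2, could have held up to 0.327 and 0.345 CPM by the floor of 3 counts. The log2 difference between tumour types was 0.58 ± 1.24 SE in Ly6Chigh (adjusted p = 0.883) and -0.05 ± 1.33 SE in Ly6Clow cells (adjusted p = 1).

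Clec9a (chromosome 6, 129408862 to 129424763) encodes a C-type lectin that senses the actin of dead cells. It was at 1.09, 0, 0 and 3.89 CPM in Mock-LLC and 6.44, 0, 1.40 and 2.49 CPM in SULT2B1b-LLC Ly6Chigh cells. Its Ly6Clow levels were 0.984, 0.648, 0.968 and 0.438 CPM in Mock-LLC and 2.39, 1.33 and 1.23 CPM in SULT2B1b-LLC. Only the Ly6Clow groups were apart, and neither difference passed, with log2 values of 1.00 ± 1.42 SE in Ly6Chigh (adjusted p = 0.811) and 1.11 ± 1.48 SE in Ly6Clow cells (adjusted p = 1). Its exons overlap those of Clec1b on the same strand over 5.59% of their length, so a part of these few counts is uncertain.

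Itgae (chromosome 11, 73090583 to 73147446) encodes CD103, the integrin chain that binds E-cadherin. It was at 0, 0, 0.489 and 2.35 CPM in Mock-LLC and 20.8, 5.29, 0 and 2.18 CPM in SULT2B1b-LLC Ly6Chigh cells. Its level in Ly6Clow cells was 1.65, 5.98, 3.01 and 3.38 CPM in Mock-LLC and 5.28, 2.66 and 9.22 CPM in SULT2B1b-LLC. The highest value came from the library that stood apart, and the groups overlapped in both populations. The log2 difference in Ly6Chigh cells was 3.24 ± 1.47 SE (adjusted p = 0.296), and 1.79 without that library (adjusted p = 0.558); in Ly6Clow cells it was 0.70 ± 1.41 SE (adjusted p = 1).

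**Figure D2:**
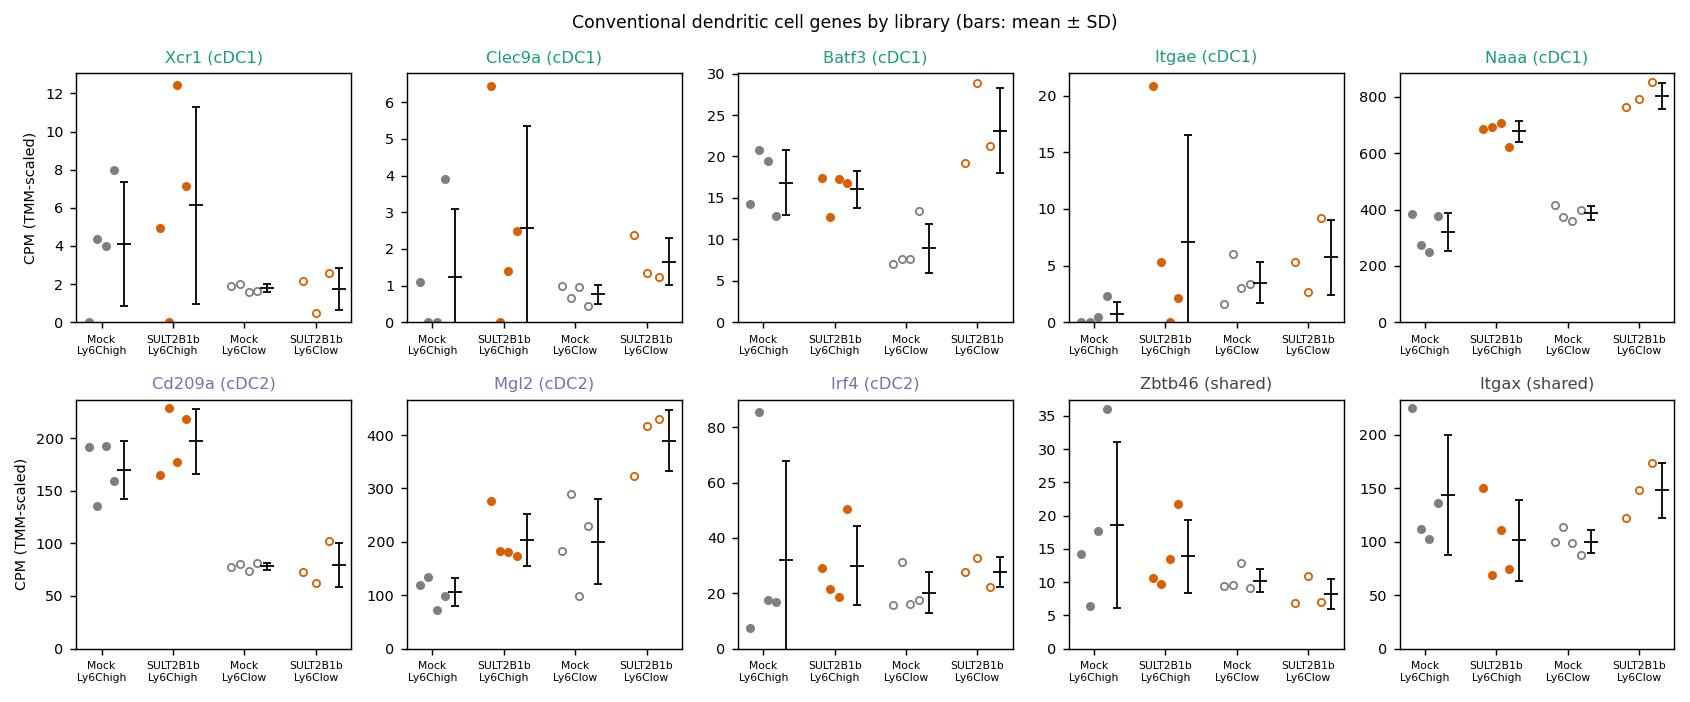
CPM of each of the 10 genes in all 15 libraries, with filled points for Ly6Chigh and open points for Ly6Clow cells, grey for Mock-LLC and orange for SULT2B1b-LLC, and bars for the group mean ± SD. Naaa is higher in SULT2B1b-LLC in both populations, Cd209a is higher in Ly6Chigh cells of both tumour types, and Xcr1, Clec9a and Itgae scatter near 0.

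Among the cDC2 genes, Cd209a followed the sorted population. Cd209a (chromosome 8, 3743397 to 3748984) encodes a mouse relative of the C-type lectin DC-SIGN and is a known marker of mouse monocyte-derived dendritic cells. It was at 191, 135, 192.5 and 159.5 CPM in Mock-LLC and 165, 228, 177 and 218 CPM in SULT2B1b-LLC Ly6Chigh cells. The Ly6Clow libraries had 77.8, 80.3, 73.9 and 81.2 CPM in Mock-LLC and 72.9, 62.5 and 103 CPM in SULT2B1b-LLC. Every Ly6Chigh library lay above every Ly6Clow library. The level in Ly6Chigh cells was 2.17-fold that in Ly6Clow cells of Mock-LLC (log2 1.12 ± 0.17 SE, adjusted p = 0.00079) and 2.49-fold in SULT2B1b-LLC (log2 1.31 ± 0.19 SE, adjusted p = 0.000969), and it passed in all 15 and 14 alternatives run. Between tumour types its log2 difference was 0.22 (95% interval -0.14 to 0.57, adjusted p = 0.597) in Ly6Chigh and 0.02 (95% interval -0.36 to 0.40, adjusted p = 1) in Ly6Clow cells. Cd209a belongs to a family of closely related lectin genes, so its counts are uncertain where reads fit several of them.

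Mgl2 stood on the opposite side of that contrast. Mgl2 (chromosome 11, 70130329 to 70137550) encodes CD301b, a galactose-type lectin of dermal cDC2 and of some macrophages. It was at 118, 133, 72.0 and 98.2 CPM in Mock-LLC and 277, 182, 180.6 and 174 CPM in SULT2B1b-LLC Ly6Chigh cells. In Ly6Clow cells it was at 184, 289, 99.1 and 229 CPM in Mock-LLC and 323, 416 and 429.9 CPM in SULT2B1b-LLC. The tumour types did not overlap in either population, while the 2 populations overlapped in Mock-LLC and were apart in SULT2B1b-LLC. The level in Ly6Chigh cells was 1.90-fold lower than in Ly6Clow cells of Mock-LLC (log2 -0.93 ± 0.27 SE, adjusted p = 0.0496) and 1.92-fold lower in SULT2B1b-LLC (log2 -0.94 ± 0.29 SE, adjusted p = 0.111). The first call stood in 4 of 15 alternatives and was lost without any 1 of 7 of the 8 libraries, the exception being Mock-LLC Ly6Clow tumour 3 (adjusted p from 0.0155 to 0.258 over the 8). With the tumour as a block, the difference was -1.11 in SULT2B1b-LLC and passed (adjusted p = 0.0169).

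Between tumour types Mgl2 was at a fitted 1.93-fold level in Ly6Chigh (log2 0.95 ± 0.28 SE, 95% interval 0.36 to 1.53, adjusted p = 0.0958) and a 1.95-fold level in Ly6Clow cells (log2 0.96 ± 0.29 SE, adjusted p = 0.340) of SULT2B1b-LLC, and neither passed. DESeq2 called the first (adjusted p = 0.0159) and limma-voom the second (adjusted p = 0.0373). Without the library that stood apart, which held the highest Ly6Chigh value, the first was 0.77 (adjusted p = 0.166). Clec10a, the close copy of Mgl2 that encodes CD301a, was at mean levels of 43.8 and 69.8 CPM in Mock-LLC and SULT2B1b-LLC Ly6Chigh cells and 42.4 and 57.1 CPM in Ly6Clow cells; reads that fit both genes make their counts uncertain.

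The ratio of Mgl2 to Cd209a within a library, looked at after the values were seen and so given without a test, was highest in SULT2B1b-LLC Ly6Clow cells. It was 0.374 to 0.984 in Mock-LLC and 0.798 to 1.68 in SULT2B1b-LLC Ly6Chigh cells, 1.34 to 3.60 in Mock-LLC and 4.19 to 6.65 in SULT2B1b-LLC Ly6Clow cells. The SULT2B1b-LLC Ly6Clow libraries were apart from all others, while the other groups overlapped their neighbours in this order. Such a ratio shows unequal levels of the 2 genes and not which of them changed.

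**Figure D3:**
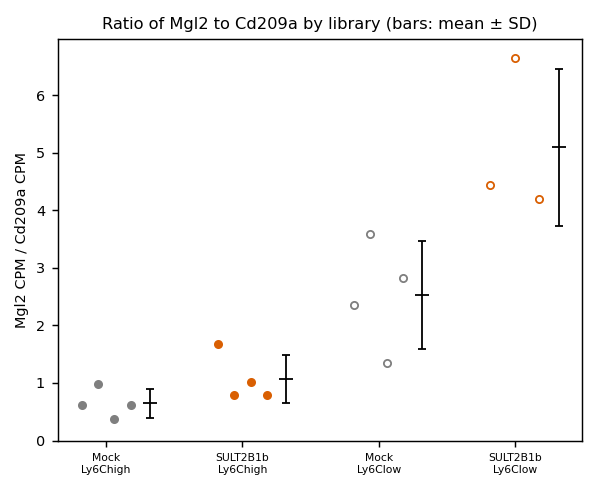
Ratio of Mgl2 CPM to Cd209a CPM in each library, with filled points for Ly6Chigh and open points for Ly6Clow cells and bars for the group mean ± SD. The ratio is at most 1.68 in Ly6Chigh cells and at least 4.19 in the 3 SULT2B1b-LLC Ly6Clow libraries.

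Irf4 (chromosome 13, 30749226 to 30766976), the transcription factor of cDC2, varied more within groups than between them. It was at 7.52, 85.5, 17.7 and 16.8 CPM in Mock-LLC and 29.2, 21.6, 18.8 and 50.4 CPM in SULT2B1b-LLC Ly6Chigh cells. In Ly6Clow cells it was at 15.8, 31.1, 16.0 and 17.7 CPM in Mock-LLC and 27.8, 32.9 and 22.1 CPM in SULT2B1b-LLC. All neighbouring groups overlapped, and the 2 high Mock-LLC values came from the libraries numbered 2, taken as 1 tumour. The log2 difference between tumour types was -0.08 ± 0.58 SE in Ly6Chigh (adjusted p = 0.975) and 0.45 ± 0.61 SE in Ly6Clow cells (adjusted p = 1).

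Of the shared genes, Zbtb46 (chromosome 2, 181387762 to 181459426) encodes a zinc finger transcriptional repressor that marks the conventional dendritic cell lineage. It was at 14.3, 6.37, 17.7 and 35.9 CPM in Mock-LLC and 10.6, 9.77, 13.5 and 21.8 CPM in SULT2B1b-LLC Ly6Chigh cells, and at 9.14 to 12.9 and 6.86 to 10.8 CPM in Ly6Clow cells. The groups overlapped throughout, with log2 differences between tumour types of -0.41 ± 0.46 SE (adjusted p = 0.741) and -0.31 ± 0.49 SE (adjusted p = 1).

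Itgax (chromosome 7, 128129547 to 128150657) encodes CD11c, which was part of the Ly6Chigh gate, so its level between populations is no finding. It was at 225, 112, 102 and 136 CPM in Mock-LLC and 149.9, 69.0, 111 and 74.5 CPM in SULT2B1b-LLC Ly6Chigh cells. In Ly6Clow cells, for which the labels name no CD11c gate, it was at 99.6, 114, 99.0 and 87.7 CPM in Mock-LLC and 122, 149 and 173 CPM in SULT2B1b-LLC. The Ly6Clow groups were apart and the Ly6Chigh groups overlapped. The log2 difference between tumour types was -0.52 ± 0.26 SE in Ly6Chigh (adjusted p = 0.373) and 0.57 ± 0.28 SE in Ly6Clow cells (adjusted p = 1), and the difference between these effects was -1.08 ± 0.39 SE (unadjusted p = 0.0132, adjusted p = 0.528).

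**Figure D4:**
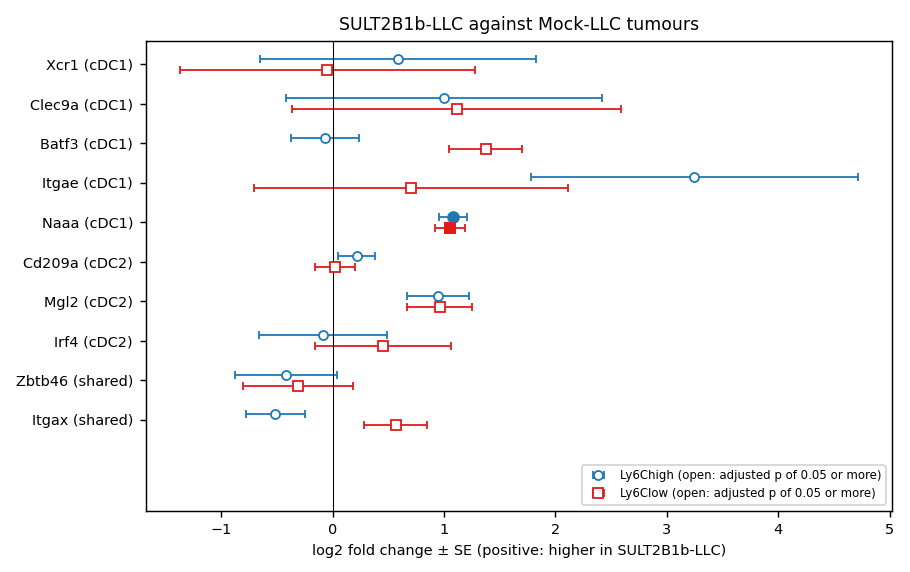
Log2 fold change ± SE of each gene between SULT2B1b-LLC and Mock-LLC tumours, circles for Ly6Chigh and squares for Ly6Clow cells; filled symbols passed the test at an adjusted p under 0.05. Naaa alone is filled, at 1.08 and 1.05, while Mgl2 lies at 0.95 and 0.96 with open symbols.

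Counted over the 10 genes, 1 rose and 0 fell in SULT2B1b-LLC in each population; of all genes tested 0.891% rose and 0.725% fell in Ly6Chigh cells, and 0.507% rose and 0.13% fell in Ly6Clow cells. Groups did not overlap for 2 genes in Ly6Chigh cells, Naaa and Mgl2, where 2.78% of all genes were apart in that direction and 2.75% in the other. In Ly6Clow cells 5 genes were apart, Naaa, Mgl2, Batf3, Clec9a and Itgax, where 7.59% of all genes were, with 8.55% in the other direction. The median log2 difference over the 10 genes was 0.40 in Ly6Chigh and 0.63 in Ly6Clow cells, against 0.03 and -0.02 over all genes tested. Split by subset, the medians in Ly6Chigh cells were 1.00 for the 5 cDC1, 0.22 for the 3 cDC2 and -0.47 for the 2 shared genes. The first of these is the value of Clec9a, which ran from 0.060 to 2.71 as 1 library was left out, so the order of the subsets is not firm. In Ly6Clow cells the medians were 1.05, the value of Naaa, 0.45 and 0.13. By the interaction test of edgeR, 0 of the 10 differed between populations in the effect of tumour type after adjustment, where 0.0145% of all genes tested did; 2, Batf3 and Itgax, had an unadjusted p under 0.05, and DESeq2 and limma-voom also called 0.

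Between populations, Cd209a was called higher in Ly6Chigh cells of both tumour types and Mgl2 lower in Mock-LLC. These are 2 of 10 genes in Mock-LLC and 1 of 10 in SULT2B1b-LLC, where 8.41% and 2.64% of all genes tested were called (3.55% higher and 4.86% lower in Mock-LLC, 1.1% higher and 1.54% lower in SULT2B1b-LLC). These comparisons use the same 4 groups of libraries as the comparisons of tumour types and are not independent of them. Naaa was not called between populations, at a log2 of -0.27 ± 0.13 SE (adjusted p = 0.220) in Mock-LLC and -0.24 ± 0.14 SE (adjusted p = 0.443) in SULT2B1b-LLC. Batf3 was at 0.91 ± 0.31 SE (adjusted p = 0.0813; 0.0388 without Ly6Clow tumour 4 and 0.00721 with DESeq2) in Mock-LLC and -0.53 ± 0.33 SE (adjusted p = 0.506) in SULT2B1b-LLC. The log2 values of Xcr1 were 1.19 ± 1.25 SE (adjusted p = 0.627) and 1.82 ± 1.40 SE (adjusted p = 0.624), and those of Zbtb46 were 0.86 ± 0.46 SE (adjusted p = 0.286) and 0.76 ± 0.50 SE (adjusted p = 0.544). In Mock-LLC the populations were apart for Cd209a alone, with the higher level in Ly6Chigh cells, where 6.46% of all genes were apart in that direction and 15.8% in the other. In SULT2B1b-LLC the populations were apart with the lower level in Ly6Chigh cells for 3 genes, Naaa, Mgl2 and Batf3, and with the higher level for Cd209a, where 13.9% and 5.57% of all genes were. Macrophage markers were called lower in Ly6Chigh cells for 7 of 8 genes in Mock-LLC and 6 of 8 in SULT2B1b-LLC. Of the 8, 0 had a log2 difference above 0 in either tumour type. The part of these markers in the results on Cd209a and Mgl2 was not tested.

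**Figure D5:**
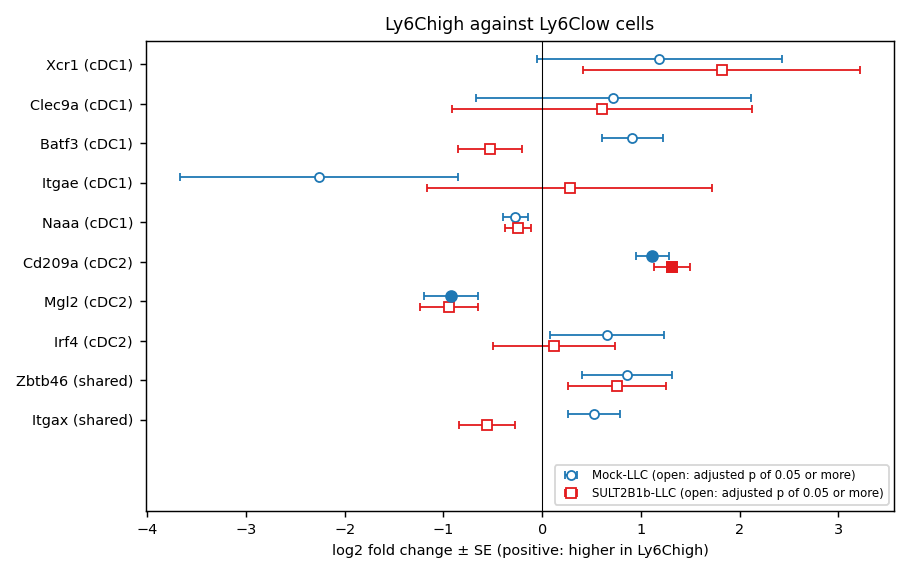
Log2 fold change ± SE of each gene between Ly6Chigh and Ly6Clow cells, circles for Mock-LLC and squares for SULT2B1b-LLC; filled symbols passed the test at an adjusted p under 0.05. Cd209a is filled on the right at 1.12 and 1.31, and Mgl2 lies on the left at -0.93 and -0.94 with only the Mock-LLC symbol filled.

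A wider set of 37 other genes of these lineages, 12 of cDC1, 10 of cDC2 and 15 shared, was read beside the 10. Of these 34 were tested, Clnk, Esam and Ap1s3 being too low. In Ly6Chigh cells 1 rose and 1 fell in SULT2B1b-LLC, 5.88% of those tested, where 1.62% of all genes tested were called (0.891% higher and 0.725% lower). Ifi205, an interferon-induced gene of the PYHIN family used as a cDC1 marker, was at 105 to 134 CPM in Mock-LLC and 153 to 203 CPM in SULT2B1b-LLC, a log2 difference of 0.58 (adjusted p = 0.0472). Rbpj, the nuclear effector of Notch signalling needed by splenic cDC2, was at 136 to 176 and 79.5 to 115 CPM, 1.51-fold lower (adjusted p = 0.0352). Neither call held without some single libraries: that of Ifi205 was lost without 6 of the 8 (all but tumour 1 of Mock-LLC and tumour 4 of SULT2B1b-LLC; adjusted p up to 0.102) and that of Rbpj without 5 (tumours 1, 2 and 4 of Mock-LLC, 3 and 4 of SULT2B1b-LLC; adjusted p up to 0.0901). Both were also lost in a fit with the replicate number as a block (adjusted p = 0.0755 and 0.0667). Over all 15 alternatives the call of Ifi205 stood in 5 (adjusted p up to 0.300) and that of Rbpj in 6 (adjusted p up to 0.361).

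In Ly6Clow cells 2 of the 34 rose in SULT2B1b-LLC and 0 fell, where 0.507% of all genes tested rose and 0.13% fell. Ifi205 was at 22.5 to 25.0 CPM in Mock-LLC and at least 36.1 CPM in all 3 SULT2B1b-LLC libraries, 1.80-fold (adjusted p = 0.0108), and Slamf7, a receptor of the SLAM family that macrophages and lymphocytes also carry, at 15.2 to 20.6 CPM and 61.3, 42.6 and 46.9 CPM, 2.80-fold (adjusted p = 0.00249). In both, the tumour types were apart. The call of Ifi205 was lost without SULT2B1b-LLC tumour 2 (adjusted p = 0.0613) or 3 (adjusted p = 0.0786), and that of Slamf7 stood in all 14 alternatives. Ifi205 has close copies in its family, so its counts are uncertain. Cadm1, a cDC1 adhesion molecule, was apart in both populations without passing: it was at 0 to 1.18 CPM in Mock-LLC and 1.35 to 12.9 CPM in SULT2B1b-LLC Ly6Chigh cells (adjusted p = 0.146), and at 1.61 to 3.85 CPM and 7.32 to 16.0 CPM in Ly6Clow cells (adjusted p = 1). It was picked after its values were seen, and of all genes tested 2.78% in Ly6Chigh and 7.59% in Ly6Clow cells were apart in that direction. Of the 11 wider cDC1 genes tested, 7 had a log2 difference above 0 in each population. Their medians were 0.26 in Ly6Chigh and 0.06 in Ly6Clow cells, against 0.03 and -0.02 over all genes tested. Id2, another of them, had lower means in SULT2B1b-LLC: 206 against 275 CPM in Ly6Chigh and 257 against 333 CPM in Ly6Clow cells.

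Between populations 6 of the 34 were higher and 2 lower in Ly6Chigh cells of Mock-LLC, 23.5% of those tested, and 5 were higher and 2 lower in SULT2B1b-LLC, 20.6%. Of all genes tested 8.41% and 2.64% were called. Ifi205 was 5.01-fold and 4.17-fold higher in Ly6Chigh cells in the 2 tumour types, Slamf7 3.96-fold and 2.14-fold, Dpp4, which encodes the surface peptidase CD26, 3.54-fold and 3.23-fold, and Kmo, kynurenine 3-monooxygenase, 2.47-fold and 2.31-fold. Notch2, the receptor upstream of Rbpj, was called in Mock-LLC only, 1.64-fold higher, as was Clec7a, the beta-glucan receptor Dectin-1, 2.18-fold higher. Runx3 was called in SULT2B1b-LLC only, 2.03-fold higher. Tested by edgeR's interaction term, 0 of the 34 effects differed between tumour types; Slamf7 (adjusted p = 0.476) and Ltb (adjusted p = 0.528) had an unadjusted p under 0.05. Anpep, the surface peptidase CD13, was 3.71-fold and 3.41-fold lower in Ly6Chigh cells, and Ltb, lymphotoxin beta, 19.3-fold lower in SULT2B1b-LLC, at 0 to 1.03 CPM against 8.90 to 11.0 CPM. In SULT2B1b-LLC the calls of Dpp4, Kmo, Runx3 and Anpep were lost without any 1 of the 3 Ly6Clow libraries, that of Slamf7 without Ly6Clow tumour 3 or 4, and those of Kmo and Anpep also without Ly6Chigh tumour 3 and of Anpep without Ly6Chigh tumour 4 (adjusted p up to 0.151). In Mock-LLC the call of Clec7a was lost without Ly6Chigh tumour 1 or 2 or Ly6Clow tumour 3 or 4 (adjusted p up to 0.0657).

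Irf8, the cDC1 factor, was at mean levels of 287 and 308 CPM in Mock-LLC and SULT2B1b-LLC Ly6Chigh cells and 372 and 359 CPM in Ly6Clow cells. It was called 1.30-fold lower in Ly6Chigh cells of Mock-LLC (adjusted p = 0.0367), and the call stood in only 2 of 15 alternatives (adjusted p up to 0.446). Among those that lost it were median-ratio scaling (adjusted p = 0.161) and leaving out each of the 8 libraries in turn (adjusted p from 0.109 to 0.272).

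Flt3, the receptor for the growth factor of both subsets, was at 27.9, 0.398, 5.47 and 47.0 CPM in Mock-LLC and 37.9, 20.1, 26.0 and 47.8 CPM in SULT2B1b-LLC Ly6Chigh cells. In Ly6Clow cells it was at 10.2 to 14.5 CPM in Mock-LLC and 6.85 to 17.4 CPM in SULT2B1b-LLC, and it was called in no comparison. Of the ligands, Flt3l was at group means of 2.30 to 6.67 CPM and was called in no comparison. Xcl1, the ligand of XCR1, had 2 counts in 1 Mock-LLC Ly6Clow library and 0 in the other 14 libraries.

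Markers of other lineages set the context of these low levels. T and NK cell markers, 8 genes, summed to at most 6.06 CPM in any library, with 3 or 4 of the 8 at 0 in each group. Of 6 plasmacytoid dendritic cell markers, Tcf4, which many other cells also express, was at 47.6 to 112 CPM in Ly6Chigh and 64.4 to 91.4 CPM in Ly6Clow libraries. The other 5, Siglech, Ly6d, Ccr9, Cox6a2 and Klk1, were each at most 1.22 CPM in a Ly6Clow library, and at most 32.6 CPM, for Ccr9, in a Ly6Chigh library. That Ccr9 value came from the SULT2B1b-LLC library that stood apart, and Ccr9 was at no more than 5.60 CPM in the remaining Ly6Chigh libraries. Siglech reached 15.7 CPM in SULT2B1b-LLC and 5.70 CPM in Mock-LLC Ly6Chigh tumour 4, neither of them the library that stood apart. It had 0 counts in 3 of 4 SULT2B1b-LLC and 2 of 4 Mock-LLC Ly6Chigh libraries. Among B cell markers, Cd79b was at 2.67 to 16.8 CPM, and Cd79a and Ms4a1 were each at no more than 1.56 CPM. Eosinophil markers, 5 genes, summed to at most 17.4 CPM in Ly6Chigh and at least 187 CPM in Ly6Clow cells, mostly of Siglecf and Ccr3. Of 5 neutrophil markers, Retnlg alone was high in Ly6Clow cells, at 347 to 637 CPM against 0 to 19.2 CPM in Ly6Chigh cells. S100a8, S100a9, Cxcr2 and Ly6g were each at most 4.29 CPM in a Ly6Clow library.

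Fibroblast markers, 4 genes, summed to 31.6 to 152 CPM in Mock-LLC and 188 to 358 CPM in SULT2B1b-LLC Ly6Chigh cells, of which Dcn made up 23.3 to 112 and 140 to 279 CPM. Mast cell and basophil markers, 5 genes, summed to 0 and 2.16 to 27.3 CPM in the same groups, with the highest sum in the SULT2B1b-LLC library that stood apart. The part of both lists in the Ly6Chigh differences was not tested. Epithelial markers, 4 genes, summed to 0 to 9.81 CPM in Mock-LLC and 3.41 to 22.9 CPM in SULT2B1b-LLC Ly6Chigh cells. In Ly6Clow cells they summed to 2.12 to 5.64 and 5.36 to 9.15 CPM. Krt8, 1 of the 4, was at 0 in every Mock-LLC and at 0.757 to 10.1 CPM in the SULT2B1b-LLC Ly6Chigh libraries. The part of this list in the Ly6Chigh differences was not tested either.

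The genes of most similar pattern were taken by Pearson's r of log2 CPM over the 15 libraries, among 8479 genes whose log2 CPM averaged at least 3. The libraries share groups, tumours and differences in depth, so r is a description only. For Naaa they were Tmem106a (r = 0.913) and Eva1b (r = 0.909), for Cd209a Klrk1 (r = 0.949) and Isg20 (r = 0.945), and for Mgl2 Gatm (r = 0.902) and Anxa4 (r = 0.887). For Batf3 they were 2 antigen presentation genes, Cd74 (r = 0.809) and H2-K1 (r = 0.797), and for Itgae 2 genes of dividing cells, Kif20a (r = 0.921) and Fignl1 (r = 0.920). Xcr1 was nearest to Rusc1 (r = 0.872) and Alg3 (r = 0.862), and Irf4 to Amz2 (r = 0.859) and Fbxo6 (r = 0.845). Zbtb46 was nearest to Tmsb10 (r = 0.814) and Dido1 (r = 0.784), and Itgax to Rptor (r = 0.806) and Nudt3 (r = 0.752). Within the 10 genes, Naaa and Mgl2 had an r of 0.762 over the 15 libraries and 0.298 within groups, Cd209a and Mgl2 -0.487 and -0.141, and Xcr1 and Clec9a 0.319 and 0.352.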

How the data were processed

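The table the authors deposited holds raw counts, judged so because all values are whole and the library totals are unequal. STAR 2.5.3a, featureCounts, limma and the builds mm10 and GRCm38, which are 1 assembly, are named in the submitters' processing notes; the sources used here do not give the counting options. Per the labels' protocols, libraries were made with SMART-Seq v4, which marks no strand, from spin-column RNA and read as single ends. Counts were analysed with edgeR 4.0.16 in R 4.3.3: filterByExpr kept 13800 genes, TMM scaled the libraries, and 1 robust quasi-likelihood fit covered the 4 groups. Tests were two-sided, adjusted by Benjamini-Hochberg within each of 5 comparisons, with a threshold of 0.05. The fit was tested on simulated counts. Alternatives were median-ratio and upper-quartile scaling, no filter, DESeq2 1.42.0, limma-voom (limma 3.58.1), only the 2 groups compared, a replicate block and each library left out.

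The 10 genes and the wider lists were chosen with earlier results of these data known. Named genes were the 10, every wider-list gene past the threshold, Flt3, Irf8, Xcl1 and Flt3l, and the 2 genes of most similar pattern to each of the 10, of which those for Clec9a are not reported here. The labels number the libraries within each tumour type. A Ly6Clow and a Ly6Chigh library of equal number were taken to come from the same tumour. Deviations of such pairs from their group means had an r of 0.0279 to 0.0936 (Mock-LLC) and -0.0103 to 0.0795 (SULT2B1b-LLC). Numbers across tumour types mark no shared tumour. Replicates differed beyond sampling noise, with a chi-square per degree of freedom of 22.9 to 104. Positions are from GENCODE M21 and promoters from RefSeq.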

Additional observations from a re-analysis of the deposited data

Results flagged for a closer look

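In 6 of 30 groups of 4 libraries (the 10 genes in 3 groups), 1 library lay far from the other 3 by Dixon's test; chance gives about 1 in 20. Batf3 was at 12.8 CPM in SULT2B1b-LLC Ly6Chigh tumour 2, where the others were at 16.8 to 17.4, and at 13.4 CPM in Mock-LLC Ly6Clow tumour 4, where the others were at 7.05 to 7.67. Mgl2 was at 277 CPM in SULT2B1b-LLC Ly6Chigh tumour 1, against 174 to 182. Irf4 was at 85.5 CPM in Mock-LLC Ly6Chigh tumour 2, against 7.52 to 17.7, and at 31.1 CPM in the Ly6Clow library of the same number, against 15.8 to 17.7. Zbtb46 was at 12.9 CPM in Mock-LLC Ly6Clow tumour 3, against 9.14 to 9.53.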

How the results depend on the processing

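Of 790 values of the 10 genes under an alternative, 710 kept their direction and side of the threshold, 12 lost a call, 9 gained one and 59 changed sign, none of these past the threshold in either fit. Median-ratio scaling moved the median log2 difference of all genes between populations by 0.13 in Mock-LLC and 0.11 in SULT2B1b-LLC, and limma-voom by -0.17 in both. The causes of the moves below were not tested. The genes called between tumour types in Ly6Chigh cells, 223, became 109 with no filter, 992 with DESeq2, 3 with only the 2 groups and 93 with the replicate number as a block. In Ly6Clow cells 88 became 193 with DESeq2, 255 with limma-voom and 422 with only the 2 groups. Between populations in Mock-LLC 1160 became 605 with no filter, 1874 with DESeq2 and 2492 with limma-voom. In SULT2B1b-LLC 365 became 204 with no filter, 887 with DESeq2, 685 with limma-voom and 210 with the tumour as a block. The interaction, 2, became 1 with no filter, 109 with DESeq2, 4 with limma-voom and 0 with the tumour block.

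Leaving out 1 library gave 120 to 358 calls in Ly6Chigh cells (120 and 358 without Mock-LLC tumours 3 and 4, 348 without SULT2B1b-LLC tumour 1) and 41 to 68 in Ly6Clow cells (57 without Mock-LLC tumour 3, and 41, 43 and 50 without SULT2B1b-LLC tumours 2, 3 and 4). It gave 584 to 1134 between populations in Mock-LLC (701, 584, 685 and 643 without Ly6Clow tumours 1 to 4) and 127 to 421 in SULT2B1b-LLC (175, 135 and 127 without Ly6Clow tumours 2, 3 and 4). For the interaction it gave 1 to 28 (28 without Mock-LLC Ly6Chigh tumour 4; 1 without each of 12 other libraries).

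Signs changed in these log2 values. With limma-voom, Irf4 between tumour types was 0.57 in Ly6Chigh and Cd209a -0.018 in Ly6Clow cells. Between populations of Mock-LLC, limma-voom gave Xcr1 -0.10, Clec9a -1.02, Irf4 -0.064 and Flt3 -0.44, and in SULT2B1b-LLC Clec9a -0.72, Itgae -1.56 and Flt3l -0.051; the interaction of Clec9a was 0.30 and of Irf4 0.13. The interaction of Mgl2 was 0.022 with upper-quartile scaling and of Naaa -0.030 with no filter. With the replicate number as a block, Irf4 was 0.35 in Ly6Chigh and Cd209a -0.0043 in Ly6Clow cells. With the tumour as a block, Clec9a was -1.17 and Flt3 -0.30 in Mock-LLC, Clec9a -0.88, Itgae -2.21, Irf4 -0.0029 and Flt3l -0.46 in SULT2B1b-LLC, and the interaction 0.29 for Clec9a and 0.20 for Zbtb46. The replicate block ended the calls of Ifi205 and Rbpj in Ly6Chigh cells, and the tumour block those of Kmo (adjusted p = 0.0929) and Ltb (adjusted p = 0.0627) in SULT2B1b-LLC and made that of Mgl2 there; they ended no other call of a gene named here and made no other among the 10.

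With 1 library left out, log2 values that crossed 0 between tumour types in Ly6Chigh cells ran from -0.022 to 1.13 for Xcr1, -0.19 to 0.053 for Batf3, -0.50 to 1.11 for Irf4 and -0.71 to 0.12 for Zbtb46. In Ly6Clow cells they ran from -0.43 to 0.41 for Xcr1, -0.20 to 0.18 for Cd209a and -0.38 to 0.26 for Flt3. Between populations they ran from -0.96 to 1.19 for Clec9a, -0.48 to 1.07 for Irf4 and -0.062 to 1.16 for Flt3 in Mock-LLC. In SULT2B1b-LLC they ran from -0.29 to 1.04 for Clec9a, -1.14 to 0.79 for Itgae, -0.23 to 0.34 for Irf4 and -0.34 to 0.81 for Flt3l. For the interaction they ran from -1.08 to 1.58 for Clec9a, -0.091 to 0.10 for Naaa, -0.27 to 0.17 for Mgl2, -0.97 to 0.65 for Irf4 and -0.43 to 0.42 for Zbtb46. Xcr1, Clec9a and Itgae had 0 to 98 counts in a Ly6Chigh library; what sets that spread was not tested.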
